A study of Mus musculus with 8 samples.

Results

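Fc gamma receptors are the proteins by which macrophages and microglia bind immunoglobulin G (IgG). The genes described here are the 5 mouse genes that give such cells their IgG receptors: the activating receptors Fcgr1 (CD64), Fcgr3 (CD16) and Fcgr4 (CD16-2), their common gamma chain Fcer1g, and the inhibitory receptor Fcgr2b (CD32b). They were chosen by name and matched to the count table through Ensembl identifiers, and they make up 5 of the 46078 genes counted. Fcgr1, Fcgr3 and Fcgr4 signal through the immunoreceptor tyrosine-based activation motif (ITAM) of Fcer1g, on which Src-family kinases and Syk act. Fcgr2b carries an inhibitory motif (ITIM) that recruits the phosphatase SHIP1 (gene Inpp5d) and dampens signals of the activating receptors.

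The study cultured the BV-2 line of mouse microglia, kept it without serum for 4 h, and sequenced the RNA of 4 groups with 2 biological replicates each. Control cells, labelled untreated, received solvent. LPS cells received lipopolysaccharide at 100 ng/mL for 20 h. AGE+LPS cells received aged garlic extract at 0.5% by volume from 1 h before the same LPS, and FruArg+LPS cells received its component FruArg, a derivative of arginine and fructose, at 3 mM from 1 h before the same LPS. Replicate 1 of each group was sequenced on lane 3 and replicate 2 on lane 6, so each replicate number is also a lane.

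Levels of the members are given as CPM, reads per megaread of library size after scaling the 8 libraries by the trimmed mean of M-values (TMM). Changes are log2 fold changes from edgeR with the standard error (SE) after the ± sign, and a gene was called a differentially expressed gene (DEG) where it changed at least 2-fold with an adjusted p, the Benjamini-Hochberg false discovery rate over all genes tested, below 0.05. Each comparison was fitted on its 4 libraries, 2 per group. The lowest count of any member was the 126 reads of Fcgr2b in control replicate 1, and all 5 members passed the filter on low counts in every comparison. A fit that adds the replicate number as a blocking factor, and so compares samples within lanes, is called the blocked fit. It is given where it changes a call. The blocked fit estimates a further coefficient from the same 4 libraries, so its adjusted p rests largely on variability pooled over genes. A very small adjusted p of the blocked fit is thus not a measure of replicate spread in that gene alone.

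BV-2 is an immortalized line, which was not compared here with other microglia. Its 16 listed genes of microglia and macrophages summed to 4372 and 5221 CPM in control cells, with Adgre1 the most abundant. Of the 16, only the microglial gene Sall1 had 0 reads in all 8 libraries. P2ry12 reached 6.24 and 9.29 CPM in control cells and at most 1.66 CPM elsewhere. In control cells Trem2, also listed, measured 438 and 491 CPM, and Tyrobp 563 and 570 CPM. Markers of B cells, the cells in which Fcgr2b is the main Fc gamma receptor, reached at most 1.38 CPM for any gene in any library. These are bulk profiles, in which fewer cells with a transcript and less of it per cell cannot be told apart.

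LPS changed the activating receptors in opposite directions and left the inhibitory receptor uncalled. Of the 5 members, Fcgr1 and Fcgr4 were up-regulated DEGs and Fcgr3 was a down-regulated DEG, where 11.5% of the 12888 genes tested were up-regulated and 11.1% down-regulated. Fcer1g and Fcgr2b were not DEGs. With AGE or FruArg co-treatment, Fcgr1 and Fcgr4 were lower and Fcgr3 was higher than with LPS alone. Of these differences, edgeR without the block called those of Fcgr1 and Fcgr3 with AGE, and DESeq2, also without the block, called all 6.

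**Figure D1:**
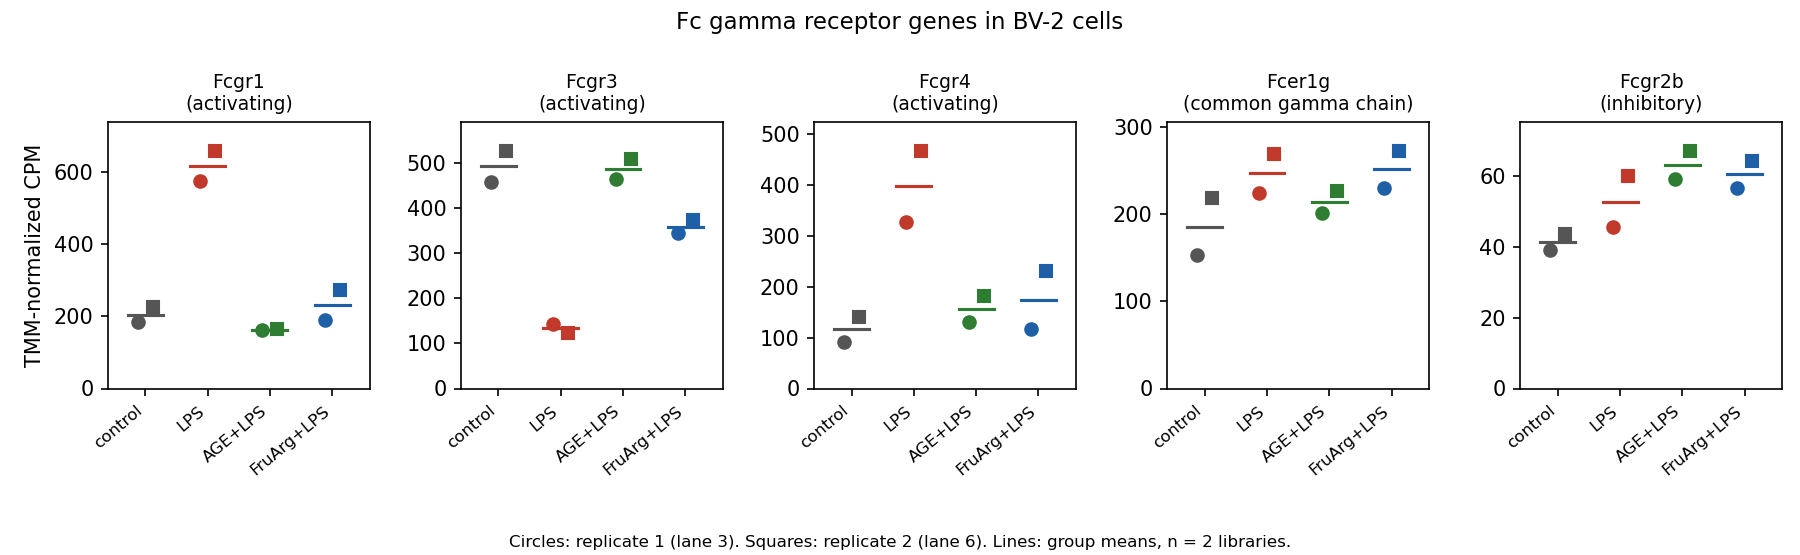
CPM of the 5 members in each of the 8 libraries. Circles are replicate 1 (lane 3), squares are replicate 2 (lane 6), and bars are group means.

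Fcgr1, the receptor that binds single IgG molecules with high affinity, measured 183 and 225 CPM in control cells, 575 and 658 CPM in LPS cells, 163 and 163 CPM in AGE+LPS cells, and 189 and 274 CPM in FruArg+LPS cells. Both LPS libraries lay above all 6 others, and the AGE+LPS libraries lay below every other library. With LPS, Fcgr1 rose 3.09-fold (log2 1.63 ± 0.22, edgeR adjusted p = 0.00057), by 1.65 in lane 3 and 1.55 in lane 6. Under AGE co-treatment Fcgr1 fell 3.77-fold against LPS (log2 -1.92 ± 0.21, edgeR adjusted p = 0.036), with -1.82 and -2.01 in the lanes. FruArg+LPS cells held 2.65-fold less Fcgr1 than LPS cells (log2 -1.41 ± 0.27, edgeR adjusted p = 0.18), with -1.60 and -1.27 in the lanes. Fcgr1 was a DEG of this comparison in the blocked fit (edgeR adjusted p = 1.3e-08), and the adjusted p of all alternatives ranged from 1.3e-08 to 0.33. It was also called when LPS replicate 1 (log2 -1.51) or FruArg+LPS replicate 2 (log2 -1.70) was left out, but not without LPS replicate 2 (log2 -1.31) or FruArg+LPS replicate 1 (log2 -1.16). Against control, neither co-treatment left a called difference of Fcgr1, with log2 -0.31 ± 0.19 for AGE+LPS and 0.21 ± 0.23 for FruArg+LPS. In these fits Fcgr1 was 1.24-fold below its control level in AGE+LPS cells and 1.15-fold above it in FruArg+LPS cells. Across the alternatives, the log2 fold change of Fcgr1 against control ranged from -0.56 to -0.16 for AGE+LPS. For FruArg+LPS it ranged from -0.20 to 0.46.

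Fcgr3, a receptor of low affinity for IgG complexes, measured 457 and 527 CPM in control cells, 143 and 123 CPM in LPS cells, 465 and 508 CPM in AGE+LPS cells, and 344 and 374 CPM in FruArg+LPS cells. The LPS libraries lay below all others, the AGE+LPS libraries lay between the control libraries, and the FruArg+LPS libraries lay between the LPS and control values. With LPS, Fcgr3 fell 3.61-fold (log2 -1.85 ± 0.21, edgeR adjusted p = 0.00023), by -1.67 in lane 3 and -2.10 in lane 6. Under AGE co-treatment Fcgr3 rose 3.66-fold against LPS (log2 1.87 ± 0.21, edgeR adjusted p = 0.036), with 1.70 and 2.05 in the lanes. Between AGE+LPS and control cells the log2 fold change of Fcgr3 was -0.00 ± 0.20. FruArg+LPS cells held 2.71-fold more Fcgr3 than LPS cells (log2 1.44 ± 0.23, edgeR adjusted p = 0.17), with 1.26 and 1.61 in the lanes. In the blocked fit Fcgr3 was an up-regulated DEG of this comparison (edgeR adjusted p = 2.4e-09, all alternatives 2.4e-09 to 0.20), and it was called when LPS replicate 1 (log2 1.54) or either FruArg+LPS replicate (log2 1.503 and 1.37) was left out, but not without LPS replicate 2 (log2 1.33). Fcgr3 in FruArg+LPS cells was 1.35-fold below control (log2 -0.43 ± 0.19, edgeR adjusted p = 0.15), a change under 2-fold that was not a DEG in the blocked fit either (edgeR adjusted p = 0.046).

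Fcgr4, a receptor for IgG2a and IgG2b, measured 91.1 and 141 CPM in control cells, 327 and 466 CPM in LPS cells, 130.1 and 181 CPM in AGE+LPS cells, and 116 and 229.6 CPM in FruArg+LPS cells. Both LPS libraries lay above all 6 others, while the other 3 groups overlapped. Replicate 2 exceeded replicate 1 in every group for Fcgr4, and likewise for Fcgr1, Fcer1g and Fcgr2b. For Fcgr1 in AGE+LPS cells the values were 163.08 and 163.31 CPM. With LPS, Fcgr4 rose 3.50-fold (log2 1.81 ± 0.27, edgeR adjusted p = 0.0011), by 1.85 in lane 3 and 1.73 in lane 6. AGE+LPS cells held 2.55-fold less Fcgr4 than LPS cells (log2 -1.35 ± 0.27, edgeR adjusted p = 0.067), with -1.33 and -1.37 in the lanes. Fcgr4 was a DEG of this comparison in the blocked fit (edgeR adjusted p = 4.7e-23) and with DESeq2 (DESeq2 adjusted p = 0.00066, all alternatives 4.7e-23 to 0.11), and when LPS replicate 1 (log2 -1.58) or AGE+LPS replicate 2 (log2 -1.60) was left out, but not without LPS replicate 2 (log2 -1.07) or AGE+LPS replicate 1 (log2 -1.13). FruArg+LPS cells held 2.29-fold less Fcgr4 than LPS cells (log2 -1.19 ± 0.35, edgeR adjusted p = 0.27), with -1.50 and -1.02 in the lanes. This difference of Fcgr4 was also called in the blocked fit (edgeR adjusted p = 2.3e-07, all alternatives 2.3e-07 to 0.82), and when LPS replicate 1 (log2 -1.44) or FruArg+LPS replicate 2 (log2 -1.77) was left out. Without LPS replicate 2 (log2 -0.91) or FruArg+LPS replicate 1 (log2 -0.78) the difference of Fcgr4 was under 2-fold and not called. Against control, Fcgr4 was 0.43 ± 0.26 log2 higher in AGE+LPS cells and 0.60 ± 0.34 higher in FruArg+LPS cells, and neither difference was called. Fcgr4 was a DEG against control only when FruArg+LPS replicate 1 was left out (log2 1.014), and without FruArg+LPS replicate 2 its log2 fold change was 0.0097.

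Fcer1g, the gamma chain that carries the ITAM, measured 153 and 218 CPM in control cells, 225 and 268 CPM in LPS cells, 201 and 226 CPM in AGE+LPS cells, and 230.1 and 272 CPM in FruArg+LPS cells. Both control libraries lay below the LPS and FruArg+LPS libraries, which overlapped each other, and the AGE+LPS libraries overlapped the control and LPS ranges. The change of Fcer1g with LPS was log2 0.44 ± 0.23 (edgeR adjusted p = 0.18), with 0.55 in lane 3 and 0.30 in lane 6. In the blocked fit it reached an edgeR adjusted p of 0.012 (all alternatives 0.012 to 0.96), under 2-fold and so not a DEG. The log2 fold change of Fcer1g with LPS was 0.019 with library size scaling, and 0.21 to 0.71 with each library left out. Against control, Fcer1g in FruArg+LPS cells was at log2 0.46 ± 0.22 (edgeR adjusted p = 0.18), with 0.025 in the blocked fit, again under 2-fold. AGE co-treatment left Fcer1g at log2 -0.20 ± 0.21 against LPS, and FruArg co-treatment at 0.04 ± 0.24. Fcer1g was not a DEG in any of the 6 comparisons, with or without the block. The gamma chain was thus not called while the receptors that use it changed in opposite directions.

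Fcgr2b, the only inhibitory Fc gamma receptor of the mouse, measured 39.3 and 43.5 CPM in control cells, 45.7 and 59.95 CPM in LPS cells, 59.2 and 67.2 CPM in AGE+LPS cells, and 56.7 and 64.4 CPM in FruArg+LPS cells. Both control libraries were the lowest, and the LPS libraries overlapped the FruArg+LPS and AGE+LPS ranges. The change of Fcgr2b with LPS was log2 0.38 ± 0.23 (edgeR adjusted p = 0.23), with 0.22 in lane 3 and 0.46 in lane 6. Scaled by library size alone, which moved the median of all genes from 0.02 to -0.40 and the DEGs from 1485 up and 1433 down to 932 up and 2666 down, this change of Fcgr2b was -0.04. Against LPS, Fcgr2b was higher by log2 0.26 ± 0.23 in AGE+LPS cells and by 0.20 ± 0.26 in FruArg+LPS cells, and neither passed the test. AGE+LPS cells held 1.54-fold more Fcgr2b than control cells (log2 0.62 ± 0.20, edgeR adjusted p = 0.062), with 0.59 and 0.63 in the lanes, and log2 0.37 with library size scaling. In the blocked fit this difference of Fcgr2b reached an edgeR adjusted p of 0.0017, under 2-fold and so not a DEG. FruArg+LPS cells held 1.49-fold more Fcgr2b than control cells (log2 0.57 ± 0.21, edgeR adjusted p = 0.095), with 0.53 and 0.56 in the lanes. Scaled by library size alone, this change of Fcgr2b was 0.17. Group means of Fcgr2b were 41.4 ± 3.00 CPM (mean ± standard deviation) in control, 52.8 ± 10.07 CPM in LPS, 63.2 ± 5.70 CPM in AGE+LPS and 60.5 ± 5.40 CPM in FruArg+LPS cells, with the last 3 overlapping.

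Among the 5 members, 2 were DEGs of AGE+LPS against LPS without the block, Fcgr3 up and Fcgr1 down, where 0.292% of the 12317 genes tested were up-regulated and 0.503% down-regulated. In the blocked fit 3 of 5 members were DEGs, Fcgr4 added, where 4.91% of genes were up-regulated and 4.82% down-regulated. For FruArg+LPS against LPS, edgeR without the block called 0 of 5 members and 0% of the 12071 genes tested in either direction. At unadjusted p below 0.05 that edgeR fit held 3 of 5 members (Fcgr1, Fcgr3 and Fcgr4) and 1543 of the 12071 genes, and DESeq2 called 3 of 5 members and 194 of the 21303 genes it tested. In the blocked fit 3 of 5 members were DEGs of FruArg+LPS against LPS, where 2.87% of genes were up-regulated and 3.48% down-regulated. Against control, 0 of 5 members were DEGs with either co-treatment by edgeR, where 15.0% of genes were called for AGE+LPS and 17.4% for FruArg+LPS. At unadjusted p below 0.05 the edgeR fits against control held 1 of 5 members (Fcgr2b) and 3938 of 12449 genes for AGE+LPS, and 1 of 5 members (Fcgr2b) and 4311 of 12038 genes for FruArg+LPS. Against control, DESeq2 called 0 of 5 members and 1657 of 21309 genes for AGE+LPS, and 0 of 5 members and 1954 of 20703 genes for FruArg+LPS. FruArg+LPS against AGE+LPS held 0 of 5 members and 0% of genes by edgeR without the block, with 0 members and 668 of 11915 genes at unadjusted p below 0.05 and 0 members and 0 of 20504 genes by DESeq2. The blocked fit of FruArg+LPS against AGE+LPS called 0 of 5 members and 107 genes. The comparisons against LPS share the LPS libraries, and those against control share the control libraries.

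Activating and inhibitory receptors were set side by side per length, as CPM per kilobase (kb) of all exon bases of a gene. In control cells the order was Fcgr3 (284 CPM per kb), Fcer1g (212), Fcgr4 (92.3), Fcgr1 (78.9) and Fcgr2b (7.15). In LPS cells the order per kb became Fcgr4 (316 CPM per kb), Fcer1g (282), Fcgr1 (238), Fcgr3 (76.7) and Fcgr2b (9.12). With the length of the longest coding transcript, Fcer1g (361 CPM per kb) stood above Fcgr4 (316) in LPS cells. By either length, Fcgr3 moved from the most to the least abundant activating receptor with LPS, while Fcgr2b stayed last in both groups.

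The ratio of Fcgr1 to Fcgr2b per kb was 10.4 and 11.6 in control cells, 28.1 and 24.6 in LPS cells, 6.16 and 5.43 in AGE+LPS cells, and 7.46 and 9.51 in FruArg+LPS cells. It was above the other groups in both LPS libraries and below both control libraries in all 4 co-treated libraries. The ratio of Fcgr4 to Fcgr2b per kb was 10.7 and 14.9 in control cells, 33.0 and 35.9 in LPS cells, 10.1 and 12.4 in AGE+LPS cells, and 9.43 and 16.4 in FruArg+LPS cells. For Fcgr4 the co-treated libraries overlapped the control libraries. The ratio of Fcgr3 to Fcgr2b per kb was 38.8 and 40.4 in control cells, 10.5 and 6.83 in LPS cells, 26.2 and 25.2 in AGE+LPS cells, and 20.2 and 19.4 in FruArg+LPS cells. For Fcgr3 the co-treated libraries lay between LPS and control. Fcer1g to Fcgr2b per kb was 25.8 and 33.2 in control cells, 32.5 and 29.6 in LPS cells, 22.5 and 22.3 in AGE+LPS cells, and 26.9 and 28.0 in FruArg+LPS cells. For Fcer1g both AGE+LPS libraries were the lowest. The size of each ratio depends on the length used, which scales every library alike. With the longest coding transcript, Fcgr1 to Fcgr2b was 6.39 and 7.08 in control cells and 17.2 and 15.0 in LPS cells. By that length Fcgr3 to Fcgr2b was 30.6 and 31.9 in control cells.

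With LPS the log2 ratio to Fcgr2b changed by 1.26 for Fcgr1 (1.43 and 1.09 in lanes 3 and 6). For Fcgr4 this change was 1.45 (1.63 and 1.27). For Fcgr3 it was -2.23 (-1.89 and -2.56). The balance of activating to inhibitory transcripts thus moved up for Fcgr1 and Fcgr4 and down for Fcgr3. With AGE co-treatment the log2 ratio to Fcgr2b changed against LPS by -2.18 for Fcgr1, -1.62 for Fcgr4 and 1.60 for Fcgr3. With FruArg co-treatment the changes were -1.64 for Fcgr1, -1.47 for Fcgr4 and 1.23 for Fcgr3. Each ratio of an activating receptor to Fcgr2b moved in the same direction in both lanes, and the ratios were not tested.

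**Figure D2:**
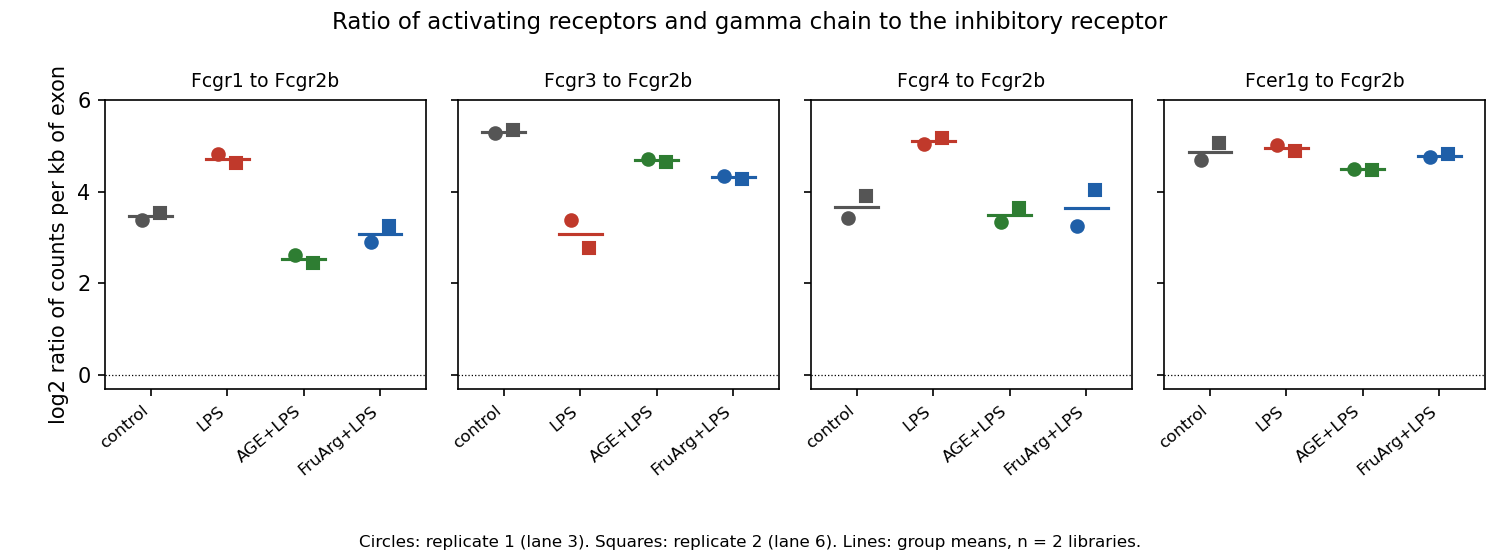
Log2 ratios to Fcgr2b, per kilobase of exon, of Fcgr1, Fcgr3, Fcgr4 and Fcer1g in each library. Circles are lane 3 and squares are lane 6.

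The ratio of Fcgr3 to Fcgr1 per kb was 3.72 and 3.49 in control cells, 0.372 and 0.278 in LPS cells, 4.26 and 4.64 in AGE+LPS cells, and 2.71 and 2.04 in FruArg+LPS cells. Fcgr3 exceeded Fcgr1 in every library outside the LPS group and was below it in both LPS libraries. Fcgr4 to Fcgr1 per kb was 1.02 and 1.29 in control cells and 1.17 and 1.46 in LPS cells, so these receptors moved together with LPS. In AGE+LPS cells that ratio of Fcgr4 to Fcgr1 was 1.64 and 2.29, above all control and LPS libraries, and in FruArg+LPS cells it was 1.26 and 1.73, overlapping both.

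As a share of the summed CPM per kb of the 4 receptors, Fcgr3 made up 63.7% and 59.5% in control cells, 14.4% and 10.01% in LPS cells, 60.3% and 57.2% in AGE+LPS cells, and 53.1% and 41.8% in FruArg+LPS cells. Fcgr4 made up 17.5% and 22.0% in control cells, 45.5% and 52.5% in LPS cells, 23.3% and 28.2% in AGE+LPS cells, and 24.7% and 35.5% in FruArg+LPS cells. Fcgr1 made up 17.1% and 17.1% in control cells, 38.7% and 36.0% in LPS cells, 14.2% and 12.3% in AGE+LPS cells, and 19.6% and 20.5% in FruArg+LPS cells. Fcgr3 was the largest share in every library outside the LPS group and the smallest share of an activating receptor in both LPS libraries. Fcgr2b made up 1.64% and 1.47% in control cells, 1.38% and 1.47% in LPS cells, 2.30% and 2.27% in AGE+LPS cells, and 2.62% and 2.16% in FruArg+LPS cells. The inhibitory share was higher in all 4 co-treated libraries than in the control and LPS libraries. With the length of the longest coding transcript in place of all exon bases, Fcgr2b made up 2.14% in control, 2.22% in LPS, 3.15% in AGE+LPS and 3.39% in FruArg+LPS cells on average.

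**Figure D3:**
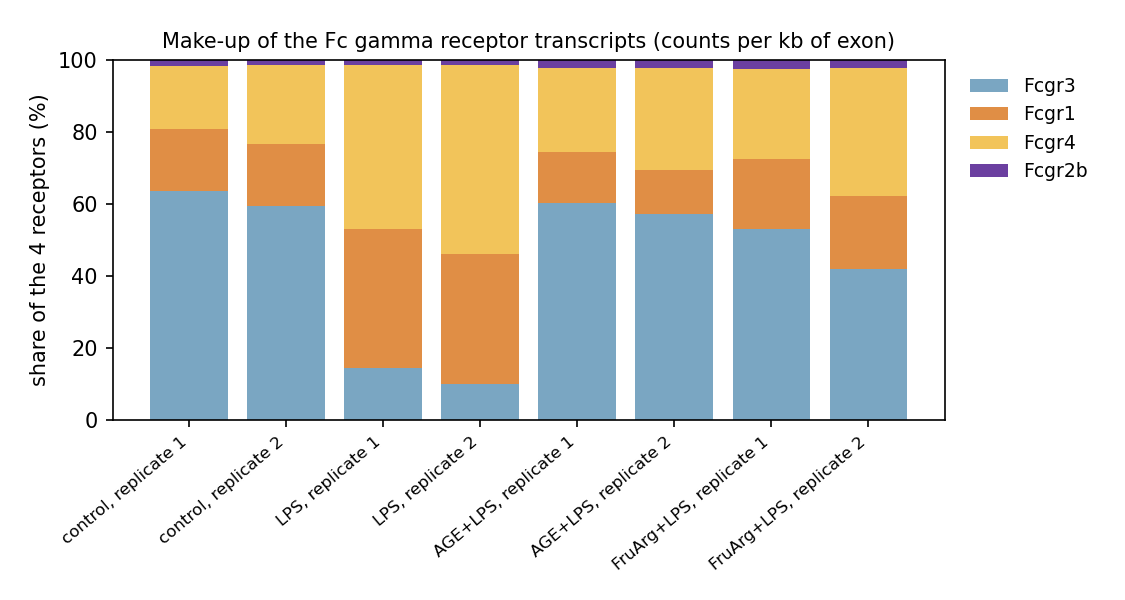
Share of each of the 4 receptors in their summed CPM per kilobase of exon in each library.

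Fcgr2b, Fcgr3, Fcgr4 and Fcer1g lie together on chromosome 1, and Fcgr1 lies on chromosome 3. Within the cluster, Fcgr4 rose with LPS while its neighbor Fcgr3 fell and Fcgr2b did not pass the test. Of 22 other genes tested within 250 kb of the chromosome 1 members, 2 were up-regulated (Adamts4 and Usf1) and 2 down-regulated (Dusp12 and Tomm40l) with LPS. Around Fcgr1, 1 of 20 tested neighbors was up-regulated and 4 were down-regulated. Among all 12888 genes tested, 11.5% were up-regulated and 11.1% down-regulated with LPS.

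**Figure D4:**
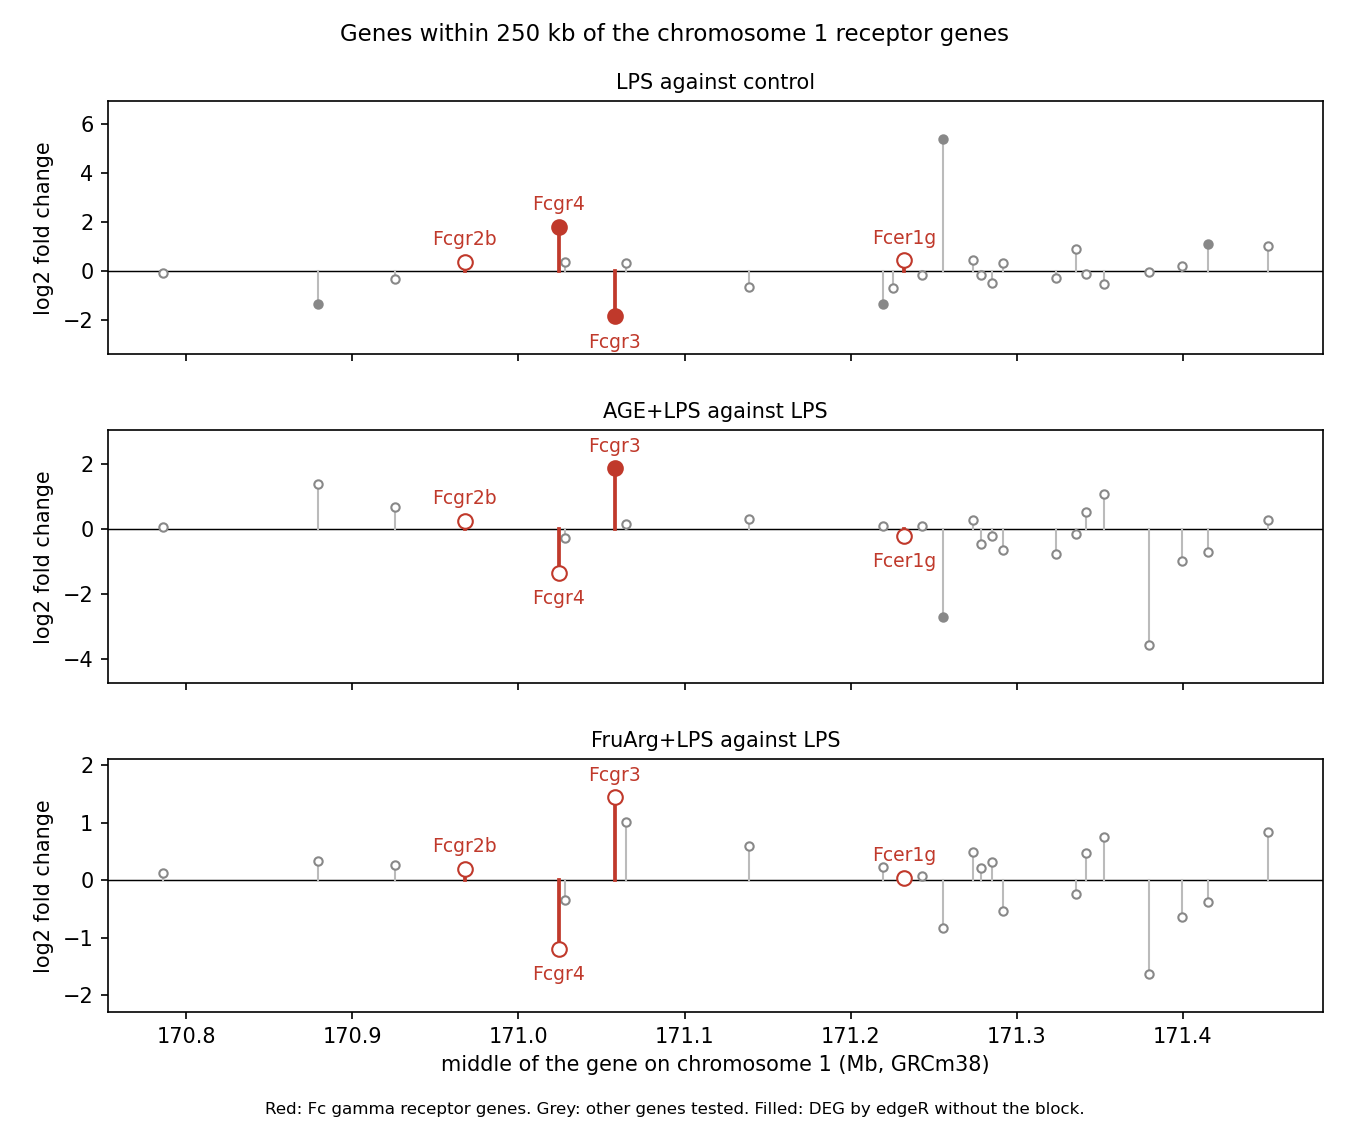
Log2 fold changes of the chromosome 1 members and the tested genes within 250 kb of them, by position in GRCm38. Red marks the members, and filled points are DEGs without the block.

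Across the 8 libraries, the Pearson correlation of log2 CPM between Fcgr1 and Fcgr4 was 0.896 and that between Fcgr1 and Fcgr3 was -0.948. The 8 libraries share lanes and groups, and the correlations were not tested. Fcgr2b had a correlation of 0.688 with Fcer1g, 0.341 with Fcgr4, -0.057 with Fcgr1 and -0.024 with Fcgr3. Among the 9997 genes compared, the gene most alike to Fcgr3 was Itgam (r = 0.987), the alpha chain of complement receptor CR3. The gene most alike to Fcgr4 was Nmi (r = 0.992), an interferon-induced gene. For Fcgr1 it was Svbp (r = 0.992), and for Fcgr2b it was Hsd17b12 (r = 0.973).

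Of 27 tested genes of ITAM signaling below the activating receptors, 9 were up-regulated and 1 was down-regulated with LPS. Among all genes tested, 11.5% were up-regulated and 11.1% down-regulated. The median log2 fold change of the ITAM genes was 0.46, beside 0.02 for all genes. Syk, the kinase that binds the ITAM of Fcer1g, rose from 109 ± 3.81 to 508 ± 43.9 CPM (log2 2.26). Against LPS, the blocked fit called 0 of these ITAM genes with either co-treatment, where it called 9.73% of all genes with AGE and 6.35% with FruArg. Without the block edgeR also called 0 of them, where it called 0.796% of all genes with AGE and 0% with FruArg. Syk stood at 402 ± 12.4 CPM with AGE and 512 ± 33.5 CPM with FruArg. Syk thus rose with Fcgr1 and Fcgr4 but was not called with either co-treatment.

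Of 16 tested genes of ITIM signaling and damping of ITAM signals, below Fcgr2b, LPS up-regulated 0 and down-regulated 3 (median log2 -0.43). LPS up-regulated 11.5% of all genes tested and down-regulated 11.1%. Dok2, an adaptor that recruits RasGAP, fell from 45.5 ± 4.48 to 8.49 ± 1.46 CPM (log2 -2.39). Inpp5d, the phosphatase that Fcgr2b recruits, went from 116 ± 4.37 to 60.7 ± 10.9 CPM (log2 -0.90, edgeR adjusted p = 0.011), under 2-fold and not called. Fcgr2b itself was not called with LPS. Against LPS, the blocked fit called 3 of the 16 ITIM genes up-regulated with AGE, where 4.91% of all genes were, and 2 with FruArg, where 2.87% were. Without the block edgeR called 0 of the ITIM genes against LPS, and 0.796% of all genes with AGE and 0% with FruArg.

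For comparison with each list that follows, 11.5% of all 12888 genes tested were up-regulated with LPS and 11.1% down-regulated. A list of partners of ITAM adaptors, with Fc receptors left out, also holds the adaptors Tyrobp and Hcst and the ITIM receptor Pirb. Of its 16 tested genes, 6 were up-regulated and 4 down-regulated with LPS (median log2 0.33). The blocked fit called 7 of them up-regulated and 4 down-regulated, where it called 12.4% and 13% of all genes. Trem2 fell from 465 ± 37.1 to 175 ± 51.0 CPM, while Clec4e rose from 60.7 ± 12.2 to 1456 ± 676 CPM. Of 4 tested Fc and Fc-like receptors outside the 5 members, Trim21 was up-regulated and Fcrls down-regulated (median log2 -0.28). Of 11 tested inhibitory receptors with ITIMs other than Fcgr2b and Pirb, 3 were up-regulated and 2 down-regulated with LPS (median log2 -0.07). Cd72 rose from 47.0 ± 10.4 to 174 ± 29.3 CPM and Cd33 fell from 21.8 ± 2.67 to 2.09 ± 1.65 CPM. Of 32 tested genes of the phagocytic cup and NADPH oxidase, 4 were up-regulated and 3 down-regulated (median log2 0.22), with Cybb at 296 ± 79.9 and 1458 ± 363 CPM. Of 12 tested complement genes and receptors, 3 were up-regulated and 6 down-regulated (median log2 -0.88). Of 26 tested factors known to set the balance of Fc gamma receptors, 10 were up-regulated and 1 down-regulated (median log2 0.69). Spi1, which encodes the myeloid factor PU.1, was not called (log2 0.65, edgeR adjusted p = 0.053). All 6 listed LPS response genes were up-regulated (median log2 7.55), with Nos2 rising from 1.42 ± 1.08 to 785 ± 35.3 CPM.

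The 250 bases before the RefSeq start (GRCm38.p6) are shown for the 3 activating receptors and Fcgr2b, because Fcgr1 and Fcgr4 rose with LPS, Fcgr3 fell and Fcgr2b was not called. All 5 members were found in the promoter table, and capital letters mark the motif matches. The motifs searched on both strands were GAGGAA (the core bound by PU.1, in 23.3% of 32851 promoter windows), TTCNNNGAA (the site of STAT dimers, in 7.02%) and GAAA repeated after any 2 bases (the site of interferon regulatory factors, in 2.98%). Fcgr1 held GAGGAA on the reverse strand, printed as TTCCTC, 55 bases before its start, and TTCNNNGAA 109 bases before it (chr3:96293970-96294219, minus strand).

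Fcgr1 promoter: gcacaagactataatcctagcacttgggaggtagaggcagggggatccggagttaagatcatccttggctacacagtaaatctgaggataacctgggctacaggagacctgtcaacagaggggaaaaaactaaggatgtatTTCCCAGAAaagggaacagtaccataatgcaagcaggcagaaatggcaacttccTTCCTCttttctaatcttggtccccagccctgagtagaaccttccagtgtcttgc

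Fcgr4 held GAGGAA on the reverse strand 22 bases and the repeated GAAA 73 bases before its start (chr1:171018676-171018925, plus strand).

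Fcgr4 promoter: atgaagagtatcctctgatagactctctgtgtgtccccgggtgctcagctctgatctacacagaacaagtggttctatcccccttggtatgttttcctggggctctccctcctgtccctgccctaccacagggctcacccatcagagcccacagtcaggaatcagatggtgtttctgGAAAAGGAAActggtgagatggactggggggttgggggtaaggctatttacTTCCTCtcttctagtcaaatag

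Fcgr3 has 2 RefSeq starts, 9 bases apart, and the first of them lies 5532 bases inside the gene as GENCODE draws it, so the window is not that of the outermost start. Before the first RefSeq start Fcgr3 held GAGGAA on the reverse strand at 6 bases and neither other motif, and the window of the other start held the same match only (chr1:171059404-171059653, minus strand).

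Fcgr3 promoter: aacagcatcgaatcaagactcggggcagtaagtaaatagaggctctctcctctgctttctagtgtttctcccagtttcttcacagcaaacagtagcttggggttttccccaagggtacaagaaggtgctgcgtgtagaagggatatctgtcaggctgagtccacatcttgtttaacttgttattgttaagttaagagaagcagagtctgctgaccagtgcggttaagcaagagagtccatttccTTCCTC

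Fcgr2b held none of the 3 motifs in its window (chr1:170976072-170976321, minus strand), and neither did Fcer1g. The RefSeq start of Fcgr2b lies 476 bases inside the gene as GENCODE draws it, so its window is also not that of the outermost start. A match is a description, not a site or a cause, and no match says only that these letters are not in this window.

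Fcgr2b promoter: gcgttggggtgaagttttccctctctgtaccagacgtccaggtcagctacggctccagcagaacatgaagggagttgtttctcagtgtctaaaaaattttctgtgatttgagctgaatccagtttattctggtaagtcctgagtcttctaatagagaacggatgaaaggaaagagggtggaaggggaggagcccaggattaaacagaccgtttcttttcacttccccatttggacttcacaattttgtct

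Fcgr2b and Fcgr3 share sequence, which bears on how reads are assigned between an inhibitory and an activating receptor. Coding exon 4, which encodes the second immunoglobulin-like domain of each, is shown from GENCODE M21 on GRCm38, for Fcgr2b (chr1:170966446-170966700, minus strand) and Fcgr3 (chr1:171053939-171054193, minus strand). The exons are 255 bases long and differ at 5 of them, which are in capitals in Fcgr3. Their longest identical run is 113 bases. Coding exon 3, with 255 bases in Fcgr2b and 258 in Fcgr3, was not compared base by base. Exon 4 therefore need not hold all of the shared sequence.

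Fcgr2b coding exon 4: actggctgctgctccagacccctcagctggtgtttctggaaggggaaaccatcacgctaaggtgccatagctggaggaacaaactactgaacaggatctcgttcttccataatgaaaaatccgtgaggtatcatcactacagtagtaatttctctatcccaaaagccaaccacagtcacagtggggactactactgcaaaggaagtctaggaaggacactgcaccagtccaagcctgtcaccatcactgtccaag

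Fcgr3 coding exon 4: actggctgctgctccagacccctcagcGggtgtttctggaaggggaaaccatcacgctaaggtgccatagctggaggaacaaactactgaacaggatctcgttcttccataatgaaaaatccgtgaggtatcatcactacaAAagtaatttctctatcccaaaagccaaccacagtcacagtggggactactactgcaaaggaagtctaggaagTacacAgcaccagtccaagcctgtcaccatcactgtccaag

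Of the 1248 windows of 100 bases in the longest coding transcript of Fcgr3, 44 (3.53%) occur base for base in Fcgr2b, and of its 1298 windows of 50 bases 166 (12.8%) do. Of the 3445 windows of 100 bases of Fcgr2b, 234 (6.79%) occur in any other gene, and 44 of these in Fcgr3. Fcgr1, Fcgr4 and Fcer1g had 0 windows of either length in any other gene. Coding exon 4 of Fcgr4 differed from that of Fcgr2b at 113 of 255 bases. How the study treated reads that map to more than 1 place was not stated.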

How the data were processed

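The authors trimmed the reads, mapped them with TopHat2 to GRCm38 and deposited raw read counts per Ensembl gene from featureCounts, for 8 libraries with totals of 2707500 and 8995052 (control), 8720784 and 12069807 (LPS), 6795464 and 6669072 (AGE+LPS), and 4692715 and 5822113 (FruArg+LPS). At these depths 3 reads were 0.276 to 0.936 CPM on the TMM scale. Of the 46078 identifiers, 45229 matched GENCODE M21, which gave symbols and exon lengths. All else was computed from these counts with R 4.3.3, edgeR 4.0.16 (filterByExpr, TMM, quasi-likelihood F-test on the 4 libraries of each comparison), DESeq2 1.42.0 as an alternative, Python 3.11.15 and matplotlib 3.10.9. The fits were tested on simulated data. Fold changes and adjusted p-values come from fits of all tested genes.

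Replicate numbers pair the samples because the labels give each number a shared lane. Same-numbered deviations from the group means correlated at r 0.291 to 0.679 across 12873 genes. Besides the members, genes are named that were among the 3 DEGs of a list with the largest change in each direction with LPS at a mean of at least 5 CPM, that were picked by role whatever their values (such as Syk, Inpp5d, Trem2, Fcrls, Cybb, Spi1 and Nos2), that were marker genes, or that were most alike to a member. The DEGs within 250 kb of a member were named after their values were seen. The members and lists were chosen with earlier results of these data known. The alternatives were DESeq2, other scalings and filters, no minimum fold, all groups in 1 fit, the block and each library left out. The length of the longest coding transcript was added after seeing the data.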

Additional observations from a re-analysis of the deposited data

How the results depend on the processing

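The number of members called for FruArg+LPS against LPS was 0 by edgeR without the block, and 3 with DESeq2, with genes of at least 1 read kept, with the block, with the block and all groups in 1 fit, and 0 to 3 with each library left out. For FruArg+LPS against control it was 0, and 0 to 1 with each library left out (Fcgr4). For AGE+LPS against LPS it was 2, and 3 (Fcgr4 added) with DESeq2, with genes of at least 1 read kept, with the block and with the block and all groups in 1 fit, and 2 to 3 with each library left out. Directions turned only for small changes. Fcgr2b with LPS went from 0.38 to -0.0387, Fcer1g in AGE+LPS against control from 0.22 to -0.0367 and Fcgr1 in FruArg+LPS against control from 0.21 to -0.20 with library size scaling. Fcgr3 in AGE+LPS against control went from -0.00 to 0.0244 with DESeq2, 0.0061 with relative log expression scaling, 0.016 with genes of at least 1 read kept and 0.0018 with the block. With each library left out, the log2 fold changes ranged from -0.0853 to 0.10 for Fcgr3 in AGE+LPS against control, -0.10 to 0.17 for Fcer1g in FruArg+LPS against LPS, -0.0940 to 0.46 for Fcgr1 in FruArg+LPS against control, and -0.43 to 0.57 for Fcgr4 and -0.16 to 0.0306 for Fcgr2b in FruArg+LPS against AGE+LPS.

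The number of DEGs among all genes for AGE+LPS against LPS was 98 by edgeR without the block, 1199 with it, 529 with DESeq2 and 927 with genes of at least 1 read kept, and for FruArg+LPS against LPS it was 0, 766, 194 and 503. For FruArg+LPS against AGE+LPS it was 0, 107, 0 and 40. In each of these comparisons the number was higher than by edgeR without the block whichever library was left out. Such fits have 1 library in a group. The block changed no other call of a member, and the cause of these differences was not tested. With 2 libraries per group, lane differs together with replicate. Reads shared by Fcgr2b and Fcgr3 could not be traced in the counts, and protein was not measured.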
